A study of Homo sapiens with 24 samples.

Results

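The 10 genes described here encode enzymes that make or break down eicosanoids, plus the peptide endothelin 2, and were taken by symbol from a table of 26645 gene entries measured by RNA-seq in 24 libraries. They are PTGS1 and PTGS2 (the cyclooxygenases), PTGES, PTGES2 and PTGES3 (prostaglandin E synthases), PTGIS (prostacyclin synthase), AKR1C3 (a prostaglandin F synthase), LTA4H (leukotriene A4 hydrolase), HPGD (15-hydroxyprostaglandin dehydrogenase) and EDN2. Of these 10 genes, 8 passed the low-count filter and were tested among 14741 genes. PTGS2 and HPGD did not pass and are given as counts only.

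MB468 is MDA-MB-468, a triple-negative breast cancer line that depends on methionine (Met), and MB468res-R8 is a single revertant clone obtained from it by long culture in homocysteine (Hcy) medium. Cells of each line were taken at 0 h from Met+ medium with 100 μM methionine, or 0.5, 2 or 12 h after a switch to Met-Hcy+ medium, in which methionine was replaced by 370 μM DL-homocysteine. Each of the 8 groups holds 3 libraries, and all groups shared the same base medium with dialyzed serum, vitamin B12, glutamine and cysteine. The design asks how these genes respond to methionine stress in a line that stops growing under it and in a clone that does not. No library comes from cells moved to fresh Met+ medium, so time in culture and the medium change cannot be told apart from the loss of methionine, and a single clone cannot be told apart from revertants in general. Nothing in the sources used here says that the libraries of a group came from separate cultures, so the p-values measure the spread between these libraries only.

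Eicosanoids are signalling lipids made from arachidonic acid after phospholipases release it from membranes. Cyclooxygenases turn it into prostaglandin H2, which terminal synthases convert to prostaglandin E2, prostacyclin and other prostanoids, while the lipoxygenase branch leads to leukotrienes, with LTA4H making leukotriene B4. HPGD inactivates prostaglandins. PTGS1 is known as the constitutive and PTGS2 as the inducible cyclooxygenase. Endothelin 2 is a secreted peptide, not an enzyme of this pathway, and acts through the endothelin receptors.

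Library totals, spike-in RNAs included, ran from 11745553 to 36496655 counts. Epithelial and basal-like markers were high, with EPCAM at 296 to 428 and EGFR at 2105 to 4544 CPM (counts scaled to a common depth) over the 24 libraries, and the leukocyte marker PTPRC stayed at or below 0.192 CPM. Of the other markers of non-epithelial cells, CD68 ran from 2.88 to 9.78 CPM and COL1A1 from 15.5 to 72.6 CPM. COL1A2, PECAM1, VWF and ACTA2 did not exceed 4.38 CPM. PGR stayed at or below 0.0975 CPM while ESR1 ranged from 4.07 to 22.1 CPM. The MB468 replicate 2 library at 2 h stood apart, with 8251 counts of RN7SK, an RNA without a poly(A) tail, against 44 to 357 in the other 23. Results at 2 h in MB468 are therefore also given without it.

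The 250 bases upstream of the first start listed in RefSeq (GRCh38.p14) are shown for the 2 cyclooxygenases, for PTGES and PTGES2, which catalyse the same step and whose levels parted at 12 h, and for EDN2, because these genes differ in level or in course. RefSeq's promoter set held 9 of the 10 genes, and PTGIS had no entry. Each sequence reads 5′ to 3′ on the strand of the gene and ends at the base before its start. Capitals mark the letters TATAAA of a TATA box, the letters GGGCGG of a GC box and the letters TGACG of a cAMP response half-site, each searched on both strands, with no overlap between these 3 motifs.
PTGS1, chr9:122370283-122370532, plus strand: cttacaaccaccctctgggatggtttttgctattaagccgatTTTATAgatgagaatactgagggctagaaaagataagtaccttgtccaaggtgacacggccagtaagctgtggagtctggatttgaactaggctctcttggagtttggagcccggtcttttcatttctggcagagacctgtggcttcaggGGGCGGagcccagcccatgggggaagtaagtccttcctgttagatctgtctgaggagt
PTGS2, chr1:186680424-186680673, minus strand: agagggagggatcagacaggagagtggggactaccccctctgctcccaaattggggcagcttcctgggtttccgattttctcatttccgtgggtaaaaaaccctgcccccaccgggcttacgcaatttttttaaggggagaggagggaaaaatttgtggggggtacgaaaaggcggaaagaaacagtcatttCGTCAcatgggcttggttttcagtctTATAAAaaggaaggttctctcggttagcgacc
PTGES, chr9:129753043-129753292, minus strand: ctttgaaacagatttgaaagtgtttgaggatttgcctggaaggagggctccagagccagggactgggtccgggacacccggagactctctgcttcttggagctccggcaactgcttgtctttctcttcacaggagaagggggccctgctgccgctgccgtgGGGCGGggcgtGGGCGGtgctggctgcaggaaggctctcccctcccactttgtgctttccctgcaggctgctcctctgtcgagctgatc
PTGES2, chr9:128128441-128128690, minus strand: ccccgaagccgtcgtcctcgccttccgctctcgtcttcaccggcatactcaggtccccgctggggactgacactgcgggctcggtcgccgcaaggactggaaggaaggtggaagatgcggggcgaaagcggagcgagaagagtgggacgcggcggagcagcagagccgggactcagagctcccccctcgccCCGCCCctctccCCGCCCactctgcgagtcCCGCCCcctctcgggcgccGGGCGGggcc
EDN2, chr1:41484684-41484933, minus strand: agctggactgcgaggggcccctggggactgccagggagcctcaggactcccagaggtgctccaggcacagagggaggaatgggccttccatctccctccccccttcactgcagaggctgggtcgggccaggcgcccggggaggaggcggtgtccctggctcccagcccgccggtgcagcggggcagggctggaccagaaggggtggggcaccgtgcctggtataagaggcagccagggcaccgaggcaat
The PTGS2 window held a TATA box that begins 32 bases before the start and a reverse half-site that begins 58 bases before it. PTGES held 2 GC boxes, PTGES2 held 4 and PTGS1 held 1, together with a reverse TATAAA match 208 bases upstream. In EDN2 none of these letters occurred in the window. Among 35116 promoter windows of the same length, 10.7% held the TATA box, 42.6% the GC box and 21.2% the half-site, so the GC box matches are common. RefSeq lists 2 starts for PTGS1 and 3 for PTGES2, and the windows not shown held 1 GC box each and no TATAAA. These matches are descriptions of letters and not of factor binding.

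At 12 h in Met-Hcy+ medium most of the eicosanoid genes were lower in MB468, and fewer of them in MB468res-R8. In MB468 all 8 tested genes differed from 0 h, 7 lower and 1 higher, where 70.8% of all tested genes differed, 34.7% lower and 36.1% higher. In MB468res-R8 6 of the 8 differed, 5 lower and 1 higher, against 61.3% of all tested genes, 31.1% lower and 30.2% higher. Over the 8 genes the log2 fold change had a median of -1.65 in MB468 and -1.09 in MB468res-R8, beside medians over all tested genes of 0.0073 and -0.019. PTGIS, PTGS1, LTA4H, AKR1C3 and EDN2 are also in the study's own list of genes changed at 12 h in MB468, which was drawn from these libraries, so the count is not independent evidence of its direction. The response itself differed between the lines for 6 of the 8 genes, with the value of MB468res-R8 above that of MB468 for 4 and below it for 2, where 56.5% of all tested genes differed, 26.2% above and 30.3% below. The 4 above include PTGIS, LTA4H and EDN2, which the study listed for their fall in MB468. The comparison of the lines is therefore not independent of that choice either.

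**Figure D1:**
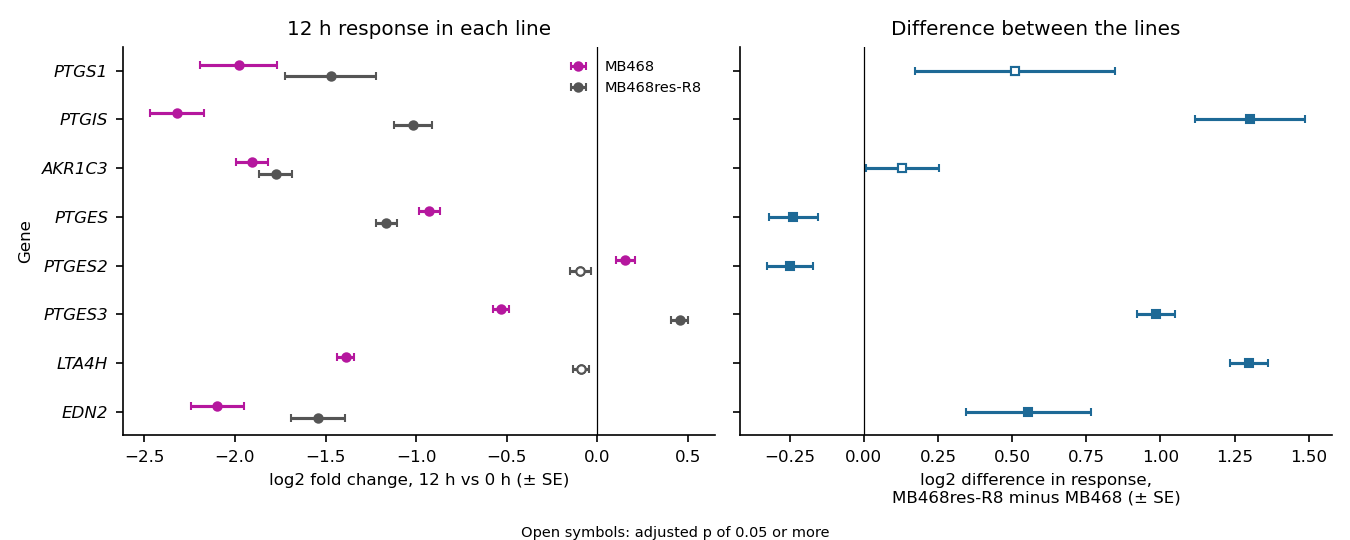
Left, log2 fold change at 12 h in Met-Hcy+ medium against 0 h in Met+ medium for the 8 tested genes (points, edgeR estimates from 3 libraries per group; bars, ± SE) in MB468 (magenta) and MB468res-R8 (gray). Right, the difference in that response, MB468res-R8 minus MB468. Open symbols mark an adjusted p of 0.05 or more. LTA4H lies at -1.39 in MB468 and -0.09 in MB468res-R8, and PTGES3 lies on opposite sides of 0 in the lines.

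Of the cyclooxygenases, PTGS1 (chr9:122370530-122395703) was expressed and PTGS2 (chr1:186671791-186680922) was close to absent. PTGS2 held 1 count in all 24 libraries together, in 1 MB468 library at 12 h. A count of 0 allows up to 3 counts, which in these libraries is 0.0824 to 0.256 CPM, a limit that covers counting error only. PTGS1 in MB468 read 79.9, 90.04 and 97.0 normalized counts at 0 h and 18.9, 20.5 and 27.2 at 12 h. The libraries of MB468res-R8 read 42.8, 48.1 and 39.2 at 0 h and 17.9, 9.11 and 18.9 at 12 h. The 12 h libraries thus lay below all 0 h libraries in both lines, and at 0 h the MB468 libraries lay above those of the clone. PTGS1 fell by 1.98 ± 0.21 (SE) on the log2 scale in MB468 (edgeR adjusted p = 7.83e-11) and by 1.47 ± 0.25 in MB468res-R8 (edgeR adjusted p = 2.85e-06). Its response was not called different between the lines (log2 difference 0.51 ± 0.34, edgeR adjusted p = 0.203). With 8 to 139 raw counts per library, PTGS1 had the lowest counts of the 8 genes.

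The 3 prostaglandin E synthases moved in different ways. PTGES encodes the inducible microsomal synthase, PTGES2 a second membrane-associated synthase, and PTGES3 the cytosolic synthase that is also known as p23, a co-chaperone of HSP90. PTGES (chr9:129738331-129753042) read 2595, 2361 and 2367 normalized counts at 0 h in MB468 and 1205, 1231 and 1410 at 12 h. In MB468res-R8 it read 3217, 2707 and 2866 at 0 h and 1321, 1263 and 1340 at 12 h. PTGES was higher at 0 h in the clone and reached overlapping levels at 12 h, so that its fall was larger there. It fell by 0.93 ± 0.059 (SE) on the log2 scale in MB468 (edgeR adjusted p = 1.54e-16) and by 1.17 ± 0.059 in MB468res-R8 (edgeR adjusted p = 9.01e-19). The log2 difference between the responses was -0.24 ± 0.083 (edgeR adjusted p = 0.0142). Scaling to the ERCC spike-in RNAs, added to the samples at library preparation, turned that difference to 0.03, and 5 of the 12 libraries ended the call when left out.

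PTGES2 (chr9:128120693-128128462) stayed within a narrow range. In MB468 it read 2075, 2029 and 2010 normalized counts at 0 h and 2286, 2100 and 2407 at 12 h. The clone read 1822, 1687 and 1685 at 0 h and 1782, 1543 and 1545 at 12 h. The MB468 groups did not overlap, and those of the clone did. PTGES2 rose by 0.15 ± 0.054 (SE) on the log2 scale in MB468 (edgeR adjusted p = 0.0108), but the value was -0.09 under spike-in scaling, so its direction depends on the scaling. In MB468res-R8 the log2 fold change was -0.09 ± 0.057 (edgeR adjusted p = 0.149). The log2 difference of -0.25 ± 0.078 between the responses (edgeR adjusted p = 0.00643) was 0.0086 under spike-in scaling.

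PTGES3 (chr12:56663341-56688408) moved in opposite directions. It fell in MB468 from 8565, 8617 and 8201 normalized counts at 0 h to 5866, 6026 and 5667 at 12 h. In MB468res-R8 it rose from 8172, 7535 and 8134 to 10288, 11233 and 11133. The 12 h libraries of the clone were the highest of all 24 and those of MB468 the lowest. The log2 fold changes were -0.53 ± 0.046 (SE) in MB468 (edgeR adjusted p = 1.53e-13) and 0.45 ± 0.045 in MB468res-R8 (edgeR adjusted p = 2.37e-11). Their difference was 0.99 ± 0.064 (edgeR adjusted p = 1.82e-16), and under spike-in scaling it was 1.25. The annotation holds 5 processed copies of PTGES3, among which reads could be divided.

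The ratio of PTGES to PTGES2 counts within a library does not depend on library scaling. It went from 1.20 (lowest 1.16, highest 1.25) at 0 h to 0.566 (0.527 to 0.586) at 12 h in MB468. In MB468res-R8 it went from 1.69 (1.60 to 1.77) to 0.809 (0.742 to 0.867). In each line the groups did not overlap, and the ratio was 0.473 and 0.478 of its 0 h value in MB468 and the clone. With 3 libraries against 3 the two-sided exact permutation test gave p = 0.1, the smallest it allows, and 0.107 adjusted over 30 tests of ratios. The ratio was also higher in the clone at both times, without overlap.

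**Figure D2:**
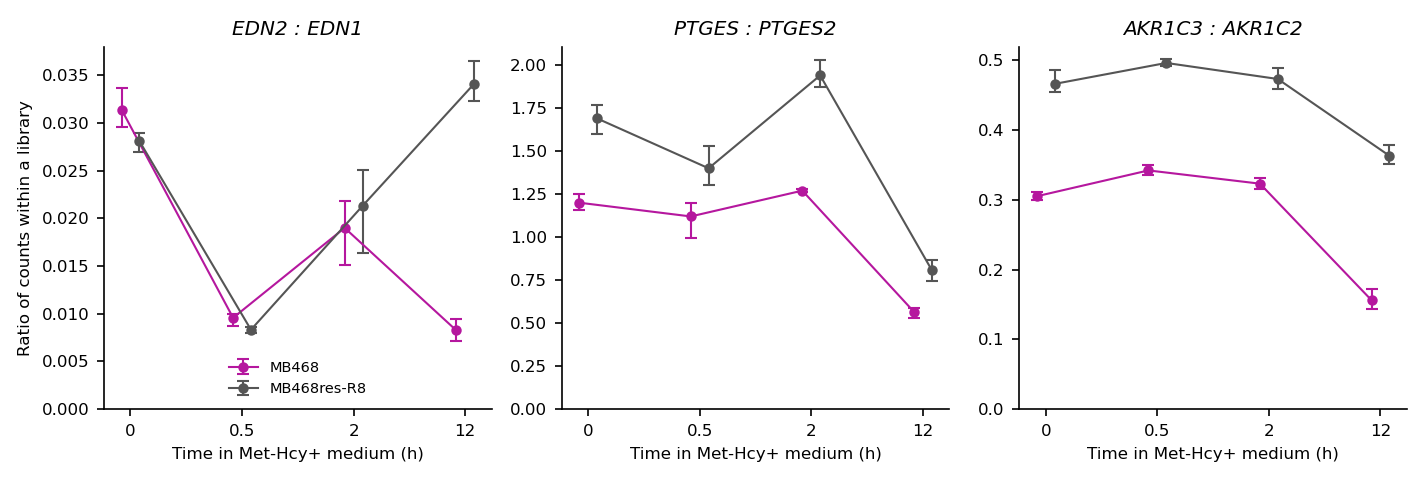
Ratio of raw counts of 2 genes within the same library against time in Met-Hcy+ medium (h; times evenly spaced, not to scale) for EDN2 to EDN1, PTGES to PTGES2 and AKR1C3 to AKR1C2. Points are means of 3 libraries and bars run from the lowest to the highest. The PTGES to PTGES2 ratio lies at 0.566 in MB468 and 0.809 in MB468res-R8 at 12 h, below every earlier group, and the EDN2 to EDN1 ratio parts at 12 h, at 0.00826 and 0.0341.

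PTGIS, which converts prostaglandin H2 to prostacyclin, separated the lines at every time. PTGIS (chr20:49503874-49568137) read 131, 115.5 and 148 normalized counts at 0 h in MB468 and 18.9, 27.0 and 32.3 at 12 h. The clone read 384, 385 and 420 at 0 h and 191, 212 and 183 at 12 h. Even the 12 h libraries of the clone, the lowest group there, lay above the highest MB468 library of any time, which read 152. PTGIS fell by 2.32 ± 0.15 (SE) on the log2 scale in MB468 (edgeR adjusted p = 3.02e-17) and by 1.02 ± 0.11 in MB468res-R8 (edgeR adjusted p = 5.03e-11). The log2 difference of 1.30 ± 0.19 between these responses passed the test (edgeR adjusted p = 1.24e-07). The clone held 3.04-fold more at 0 h and 7.50-fold more at 12 h.

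AKR1C3, which reduces prostaglandins and also steroids, fell in both lines by amounts that the test did not tell apart. AKR1C3 (chr10:5035354-5107686) read 7761, 8054 and 8482 normalized counts at 0 h in MB468 and 2065, 1989 and 2411 at 12 h. In MB468res-R8 it read 8037, 9243 and 7786 at 0 h and 2403, 2454 and 2462 at 12 h. The 0 h groups of the lines overlapped, and so did the 12 h groups. It fell by 1.91 ± 0.089 (SE) on the log2 scale in MB468 (edgeR adjusted p = 4.83e-13) and by 1.78 ± 0.089 in MB468res-R8 (edgeR adjusted p = 3.21e-12). The difference of 0.13 ± 0.12 was not called (edgeR adjusted p = 0.399), which does not show that the responses were equal. AKR1C1 and AKR1C2 are near-identical neighbours on chromosome 10 whose reads the counting could divide, so the values of the 3 genes are uncertain to that extent. Within a library the ratio of AKR1C3 to AKR1C2 went from 0.305 to 0.156 in MB468 and from 0.466 to 0.363 in the clone, without overlap between times (two-sided exact permutation p = 0.1, the smallest allowed, and 0.107 adjusted).

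LTA4H was called lower at 12 h in MB468 and not in MB468res-R8. LTA4H (chr12:96000753-96043520) read 2713, 2739 and 2767 normalized counts at 0 h in MB468 and 980.5, 1065 and 1096 at 12 h. The clone read 2810, 2724 and 2559 at 0 h and 2534, 2565 and 2512 at 12 h. The 12 h libraries of MB468 were far below all other 21, which lay between 2512 and 2957. LTA4H fell by 1.39 ± 0.046 (SE) on the log2 scale in MB468 (edgeR adjusted p = 1.71e-26), while the value in MB468res-R8 was -0.09 ± 0.044 (edgeR adjusted p = 0.0719). The difference between the responses was 1.30 ± 0.064 (edgeR adjusted p = 3.36e-20). The clone's value passed the threshold without its replicate 3 library at 0 h, at -0.13, and with genes under 10 counts in any library dropped, at -0.11 (edgeR adjusted p = 0.0285). LTA4H is overlapped by antisense RNAs in the annotation, and the library kit does not mark strand.

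HPGD (chr4:174490175-174523154), the main enzyme that inactivates prostaglandin E2, held 2 counts in all 24 libraries together, 1 each in a library of MB468res-R8 at 0.5 h and at 2 h. It was thus under the limit of 3 counts in every library, and no fold change is given for it or for PTGS2.

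EDN2 (chr1:41478775-41484683) fell early, rose again by 2 h, to its 0 h level in MB468 and short of it in the clone, and was low at 12 h. Normalized counts of the MB468 libraries were 193, 183 and 183 before the switch, 95.2, 82.7 and 88.5 after 0.5 h, 188, 150 and 218 after 2 h and 40.9, 43.2 and 46.3 after 12 h. Those of MB468res-R8 were 155, 153 and 173 before it, then 69.8, 67.8 and 61.4, then 110, 127 and 91.1, and lastly 51.0, 61.5 and 52.9. The 0.5 h libraries lay below both the 0 h and the 2 h libraries in each line. EDN2 fell by 1.06 ± 0.14 (SE) on the log2 scale at 0.5 h in MB468 (edgeR adjusted p = 7.48e-08) and by 1.27 ± 0.15 in MB468res-R8 (edgeR adjusted p = 3.53e-09). From 0.5 h to 2 h it rose by 1.07 ± 0.15 in MB468 (edgeR adjusted p = 1.2e-07) and by 0.74 ± 0.15 in MB468res-R8 (edgeR adjusted p = 0.000123). At 2 h it matched the 0 h level within the spread in MB468, with a log2 fold change of 0.0049 ± 0.13, and was still lower in the clone, at -0.53 ± 0.14 (edgeR adjusted p = 0.0144). These results changed under spike-in scaling, where the value was -0.43 in MB468 (edgeR adjusted p = 0.0362) and -0.57 in the clone (edgeR adjusted p = 0.174), and the call in the clone was also lost without replicate 3 at 0 h or replicate 1 or 3 at 2 h. Without the MB468 library that stood apart, the rise from 0.5 h to 2 h was 1.19 (edgeR adjusted p = 3.93e-08), and the line difference of the 2 h response went from -0.53 (edgeR adjusted p = 0.11) to -0.65 (edgeR adjusted p = 0.0422).

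At 12 h EDN2 fell by 2.098 ± 0.15 (SE) on the log2 scale in MB468 (edgeR adjusted p = 3.96e-16) and by 1.54 ± 0.15 in MB468res-R8 (edgeR adjusted p = 1.12e-11). The difference of 0.55 ± 0.21 between the responses passed the test (edgeR adjusted p = 0.0241) but not without MB468 replicate 1 or MB468res-R8 replicate 2 at 12 h. EDN1, which encodes the related peptide endothelin 1, took another course, with a mean in MB468 of 5938 ± 244 (SD, n = 3) normalized counts before the switch, 9285 ± 372 after 0.5 h, 9746 ± 379 after 2 h and 5293 ± 396 after 12 h. In MB468res-R8 EDN1 went from 5715 ± 357 to 7968 ± 228, back to 5164 ± 339 at 2 h and then to 1612 ± 85.4, and its 2 h response differed between the lines by -0.86 on the log2 scale (edgeR adjusted p = 1.19e-10). EDN2 was therefore falling at 0.5 h where EDN1 rose, by 0.65 ± 0.052 on the log2 scale in MB468 and 0.48 ± 0.052 in the clone. The ratio of EDN2 to EDN1 within a library went from 0.0314 to 0.00957 in MB468 and from 0.0281 to 0.00832 in the clone within 0.5 h. At 12 h it was 0.00826 in MB468 and 0.0341 in the clone, without overlap between the lines (two-sided exact permutation p = 0.1, the smallest allowed, and 0.107 adjusted).

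**Figure D3:**
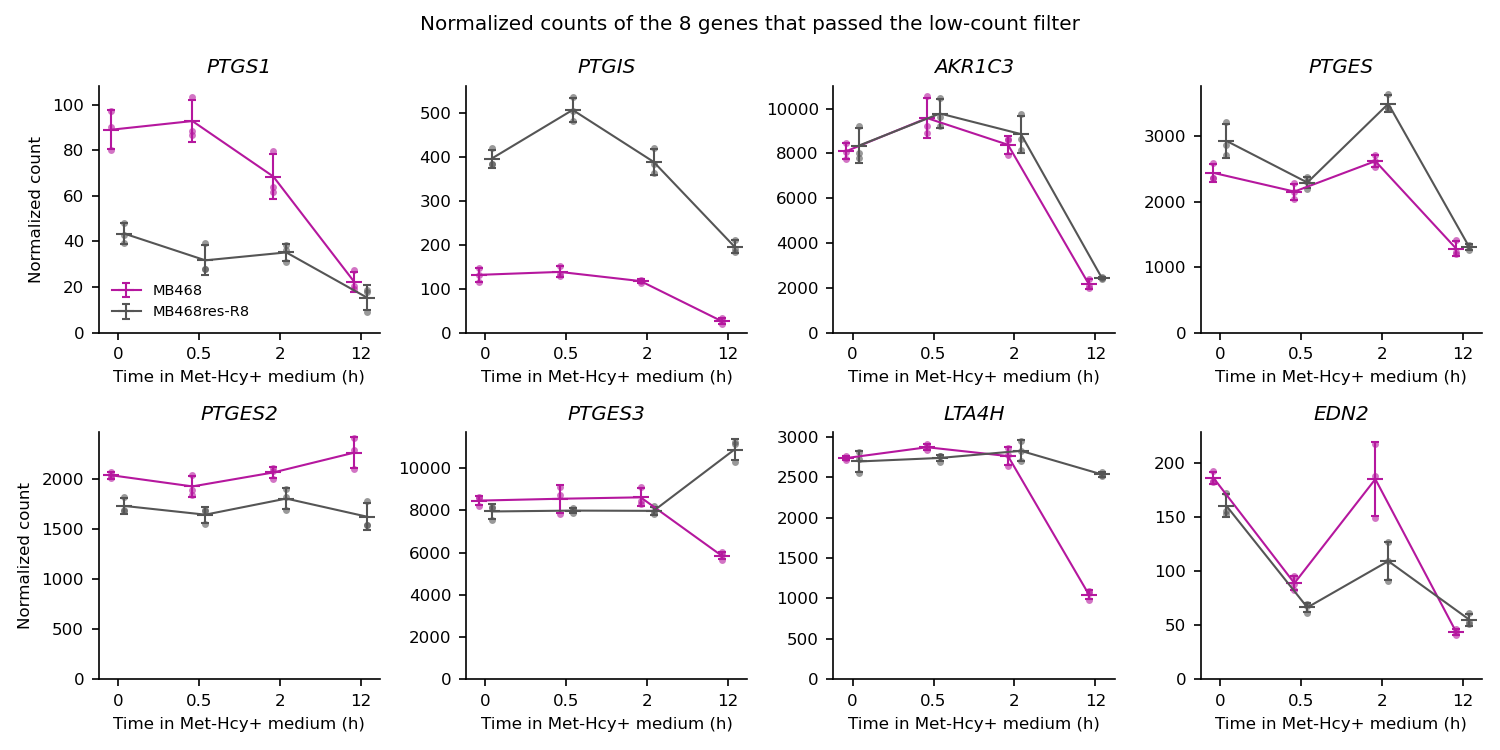
Normalized counts (raw counts scaled by TMM, a trimmed mean of M-values, to the mean effective library size) of the 8 tested genes against time in Met-Hcy+ medium (h; times evenly spaced, not to scale) in MB468 (magenta) and MB468res-R8 (gray). Points are libraries, and dashes with bars are the mean ± SD of 3 libraries. The 4 groups of MB468res-R8 lie above those of MB468 for PTGIS, EDN2 dips at 0.5 h in both lines, and LTA4H at 12 h falls in MB468 to a mean of 1047 against 2537 in the clone.

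The early changes of the other genes were small. At 0.5 h in MB468 3 of the 8 tested genes were called, against 33.9% of all tested genes, and in MB468res-R8 4 were called, against 33.7%. PTGES fell by 0.18 ± 0.058 (SE) on the log2 scale at 0.5 h in MB468 (edgeR adjusted p = 0.0164) and by 0.36 ± 0.057 in MB468res-R8 (edgeR adjusted p = 4.16e-06). Like EDN2 it then rose from 0.5 h to 2 h, by 0.28 ± 0.059 in MB468 (edgeR adjusted p = 0.000251) and by 0.61 ± 0.057 in MB468res-R8 (edgeR adjusted p = 3.47e-11). Under spike-in scaling the rise in MB468 was 0.0727 and not called (edgeR adjusted p = 0.693). The 2 h libraries of the clone, at 3415, 3645 and 3431 normalized counts, were the highest PTGES group, and exceeded the 0 h level by 0.25 ± 0.056 on the log2 scale (edgeR adjusted p = 0.00293). AKR1C3 rose at 0.5 h by 0.24 ± 0.084 in MB468 (edgeR adjusted p = 0.0347) and by 0.23 ± 0.084 in MB468res-R8 (edgeR adjusted p = 0.0448). PTGIS rose in the clone by 0.36 ± 0.098 at 0.5 h (edgeR adjusted p = 0.00357) and fell back by 0.38 ± 0.098 from there to 2 h (edgeR adjusted p = 0.00194).

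Several of the 0.5 h calls were lost under spike-in scaling, AKR1C3 in MB468 at 0.0182 (edgeR adjusted p = 0.935) and in the clone at 0.27 (edgeR adjusted p = 0.173), PTGIS in the clone at 0.40 (edgeR adjusted p = 0.0726) and PTGES in the clone at -0.30 (edgeR adjusted p = 0.11). The AKR1C3 calls at 0.5 h were also lost without any of 4 libraries in each line. The PTGES call at 0.5 h in MB468 was lost without MB468 replicate 1 at 0 h or replicate 3 at 0.5 h. Between 0.5 h and 2 h 2 of the 8 genes were called in MB468, against 32.7% of all tested genes. In MB468res-R8 4 were called, against 35.3%, PTGES2 among them at 0.14 ± 0.057 (SE; edgeR adjusted p = 0.0462) with overlapping groups. At 2 h against 0 h none of the 8 was called in MB468 by edgeR's quasi-likelihood test, none had an unadjusted p under 0.05, and 0 were called by DESeq2, against 16.3% of all tested genes called. Without the library that stood apart edgeR again called 0 of the 8. Under spike-in scaling, however, all 8 were called lower there, at -0.32 (PTGES) to -0.81 (PTGS1) on the log2 scale (edgeR adjusted p from 0.00473 to 0.0362). The median of all tested genes was -0.415 under that scaling. The share of all tested genes called under it is not given, so the count does not set these genes apart. In MB468res-R8 2 were called at 2 h, EDN2 and PTGES, against 4.37%. Both calls were lost under spike-in scaling, and PTGES, at 0.21 there, was also lost without replicate 2 at 2 h. The response at 0.5 h and at 2 h was not called different between the lines for any of the 8 genes, where 2.9% and 5.07% of all tested genes were called, and 1 gene at each time had an unadjusted edgeR p under 0.05, PTGES at 0.5 h (0.0352) and EDN2 at 2 h (0.00851), while DESeq2 called 0.

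In Met+ medium at 0 h the clone differed from MB468 in 4 of the 8 genes, against 53.5% of all tested genes. PTGIS was higher by 1.61 ± 0.11 (SE) on the log2 scale (edgeR adjusted p = 6.39e-16) and PTGES by 0.27 ± 0.057 (edgeR adjusted p = 0.000149). PTGS1 was lower, at -1.03 ± 0.20 (edgeR adjusted p = 4.6e-05), and so was PTGES2, at -0.23 ± 0.056 (edgeR adjusted p = 0.000512). For LTA4H and AKR1C3 the values were -0.02 ± 0.044 and 0.05 ± 0.084 (edgeR adjusted p = 0.734 and 0.675). Scaling to spike-in RNAs moved the median of all tested genes to -0.31, and with it PTGES to -0.05, while PTGIS stayed higher at 1.29. Under that scaling 3 further genes were called lower in the clone, a count given without the share of all tested genes called. They were LTA4H at -0.332 (edgeR adjusted p = 0.0234), PTGES3 at -0.398 (edgeR adjusted p = 0.00514) and EDN2 at -0.528 (edgeR adjusted p = 0.0123). At 12 h 4 of the 8 genes differed, against 73.1% of all tested genes. PTGIS, LTA4H and PTGES3 were higher in the clone by 2.91 ± 0.14, 1.28 ± 0.046 and 0.90 ± 0.046, and PTGES2 was lower, at -0.48 ± 0.055 (edgeR adjusted p of 3e-10 or less for each).

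Per kilobase of annotated exon, PTGES3 and AKR1C3 were the most abundant of these transcripts at 0 h in MB468, at 109 ± 2.93 and 91.0 ± 4.08 RPKM (reads scaled for length and depth; SD, n = 3). PTGES followed at 56.7 ± 3.10 RPKM, LTA4H at 16.3 ± 0.159 and PTGES2 at 14.7 ± 0.244. EDN2, PTGIS and PTGS1 were low, at 4.97 ± 0.153, 1.04 ± 0.126 and 0.676 ± 0.0654 RPKM. In the clone PTGIS stood at 3.13 ± 0.161 and PTGS1 at 0.330 ± 0.0339 RPKM. At 12 h in MB468 PTGES was at 29.8 ± 2.59 and PTGES2 at 16.4 ± 1.12 RPKM, and AKR1C3 had come down to 24.2 ± 2.53. The lengths join all annotated exons of a gene, 7405 bases for LTA4H and 1891 for PTGES, so the order depends on them. In normalized counts LTA4H stood above PTGES at 0 h in MB468, with means of 2740 and 2441.

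The genes with the most similar course, by Pearson's r of log2 CPM over the 24 libraries, are given as a description, since the libraries of a group share their state. They were DPT (r = 0.990) and SPDEF (0.989) for PTGIS, SSH3 (0.960) and NINL (0.956) for PTGS1, and LRIG1 (0.973) and FA2H (0.963) for PTGES. For LTA4H they were QARS (0.993) and IMMT (0.983), for AKR1C3 ARHGEF6 (0.994) and PDCD4 (0.989), and for EDN2 THRAP3 (0.952) and WNT9A (0.949). PTGES2 and PTGES3 varied too little over the groups to be compared in this way.

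The rest of the pathway was described with 8 gene lists around the 10 genes. Arachidonate supply covers desaturases, elongases, acyl-CoA ligases and acyltransferases around the synthesis and esterification of arachidonate, with 7 of its 8 genes tested. This list was lower at 12 h in both lines, with 7 of 7 tested genes called lower in MB468 (median log2 fold change -1.17) and 6 of 7 in MB468res-R8 (median -0.404). Of all tested genes 34.7% were called lower in MB468 and 31.1% in the clone, with medians of 0.0073 and -0.019. FADS1 and FADS2, the delta-5 and delta-6 desaturases, fell by 2.18 ± 0.087 (SE) and 2.05 ± 0.11 on the log2 scale in MB468 and by 0.82 ± 0.14 and 0.89 ± 0.16 in the clone. ACSL4 and ELOVL5 fell by 1.29 ± 0.064 and 1.17 ± 0.042 in MB468 and by 0.40 ± 0.063 and 0.34 ± 0.041 in the clone. For all 7 supply genes the response in the clone lay above that in MB468 by the test of the difference, where 26.2% of all tested genes lay above and 30.3% below. At 0 h, however, the clone already held 85.3 ± 11 (SD, n = 3) normalized counts of FADS1 against 756 ± 35.3 in MB468, and 95.4 ± 10.3 of FADS2 against 569 ± 20. FADS1, FADS2 and ELOVL5 are also among the genes that the study listed as changed at 12 h in these libraries, as are GGT1, ALOX15, ALOXE3 and MGLL of the lists that follow. For these genes neither the direction in MB468 nor the difference between the lines is independent of that choice.

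Among 12 tested genes of arachidonate release, 4 rose and 4 fell in MB468, and 5 rose and 7 fell in MB468res-R8, where 70.8% and 61.3% of all tested genes were called in the 2 lines. MGLL, which releases arachidonate from 2-arachidonoylglycerol, rose by 1.29 ± 0.12 (SE) in MB468 and 1.67 ± 0.099 in the clone on the log2 scale. DAGLB rose by 1.03 ± 0.057 and 0.28 ± 0.055, and PLA2G16 fell by 0.95 ± 0.082 and 1.23 ± 0.11. PLA2G4F fell in both lines but held at most 10 raw counts per library at 0 h in MB468. Other prostanoid synthases fell in 5 of 7 tested genes in MB468 and 4 of 7 in the clone, and none rose. Of all tested genes 34.7% were called lower and 36.1% higher in MB468, and 31.1% and 30.2% in the clone. The synthases that fell included AKR1C1, at -1.40 ± 0.073 and -1.61 ± 0.075, AKR1C2, at -0.94 ± 0.063 and -1.41 ± 0.065, and GSTM3, at -1.02 ± 0.046 and -0.83 ± 0.045. CBR3 fell by 0.44 ± 0.17 in MB468 and was at -0.07 ± 0.14 in the clone.

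In the lipoxygenase and leukotriene list 2 of 8 tested genes rose and 5 fell in MB468, and 1 rose and 4 fell in MB468res-R8, against 70.8% and 61.3% of all tested genes called. ALOX5, the entry enzyme of the leukotriene branch upstream of LTA4H, held at most 3 counts in any library. ALOXE3, an epidermal lipoxygenase, rose by 3.55 ± 0.26 (SE) on the log2 scale in MB468, from 18.6 ± 4.51 (SD, n = 3) to 218 ± 5.59 normalized counts, and by 0.72 ± 0.28 in the clone. GGT1 fell by 1.23 ± 0.12 and 1.53 ± 0.12, and ALOX15 was lower too, at -1.04 ± 0.12 and -0.996 ± 0.13. MGST2 fell by 0.82 ± 0.066 in MB468 and was at -0.10 ± 0.063 in the clone. Of the cytochrome P450 and epoxide hydrolase list 1 of 9 rose and 3 fell in MB468, and 1 rose and 6 fell in MB468res-R8, beside the same shares. EPHX2, the soluble epoxide hydrolase, fell by 1.28 ± 0.14 and 0.61 ± 0.13, and EPHX1 by 0.47 ± 0.079 and 0.52 ± 0.079. EPHX3 rose by 0.88 ± 0.36 and CYP2J2 fell by 0.43 ± 0.16 in MB468, with -0.70 ± 0.47 and 0.03 ± 0.14 in the clone. Counts of EPHX3 were low, at 7 to 16 raw counts per library at 0 h in MB468 and 5 to 7 at 12 h in the clone.

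Prostanoid inactivation and transport was mixed, with 4 of 8 tested genes higher and 3 lower in MB468 and 3 higher and 2 lower in the clone. All tested genes were called higher in 36.1% and lower in 34.7% of cases in MB468, and in 30.2% and 31.1% in the clone, which also stands beside the receptor and endothelin counts. SLCO2A1, the prostaglandin uptake transporter, rose by 0.93 ± 0.26 (SE) on the log2 scale in MB468 and 2.60 ± 0.23 in the clone, and ABCC4, which exports prostaglandin E2, by 1.10 ± 0.090 and 1.68 ± 0.095. PTGR2, a prostaglandin reductase, fell by 0.98 ± 0.068 and 0.23 ± 0.065, and AMACR rose by 0.92 ± 0.31 in MB468 beside 0.10 ± 0.32 in the clone. At 0 h in MB468 SLCO2A1 held 16 to 23 raw counts per library and AMACR 13 to 39. Of 7 tested receptors 2 rose and 3 fell in MB468, and 1 rose and 3 fell in the clone. PTGER4, the EP4 receptor of prostaglandin E2, fell by 0.54 ± 0.13 and 0.94 ± 0.14 at 12 h. PPARD rose by 0.51 ± 0.066 in MB468 and fell by 0.50 ± 0.069 in the clone. PTGER2 and TBXA2R fell in MB468 by 1.29 ± 0.49 and 0.96 ± 0.39, at 5 to 34 raw counts per library, and were at -0.43 ± 0.59 and -0.76 ± 0.36 in the clone. In the endothelin list 1 of 4 rose and 2 fell in MB468, and 1 rose and 3 fell in the clone, with MME, which degrades endothelins, at -1.05 ± 0.040 and -0.70 ± 0.040 and ECE2, which processes their precursors, at 0.54 ± 0.078 and 0.80 ± 0.078.

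**Figure D4:**
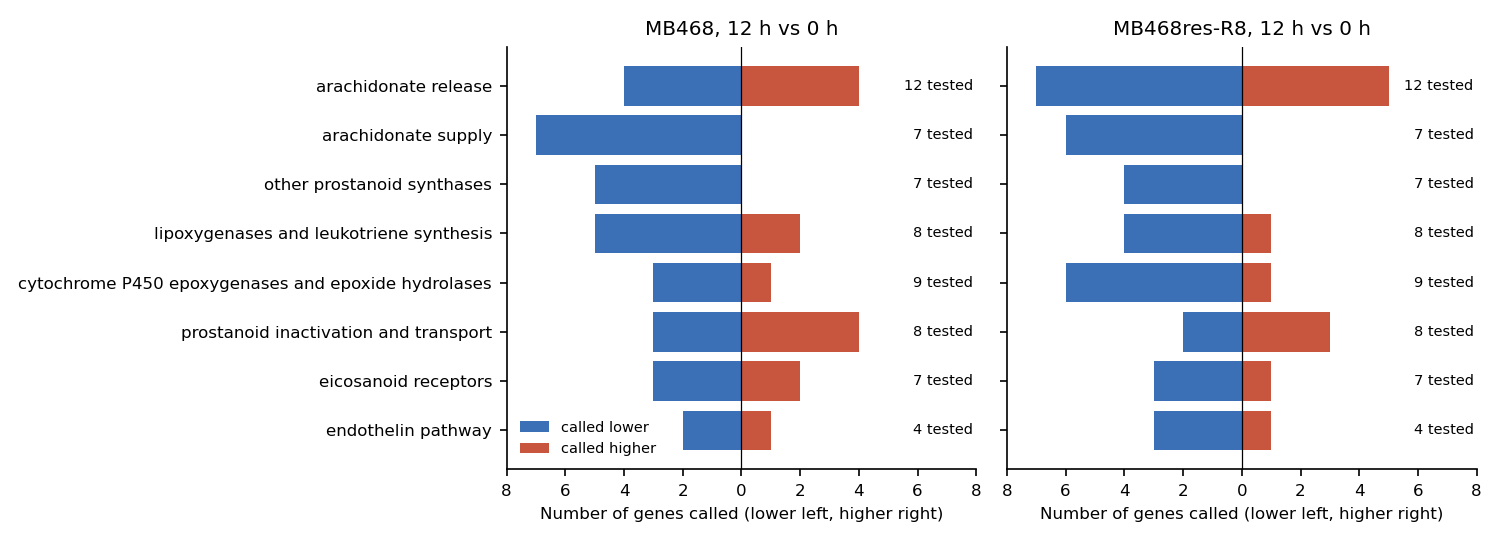
Number of tested genes called lower (blue, left of 0) or higher (red, right of 0) at 12 h in Met-Hcy+ medium against 0 h, in each of 8 gene lists, in MB468 and MB468res-R8 (edgeR, adjusted p under 0.05 over all tested genes). The supply list shows calls on the lower side alone, 7 of 7 in MB468 and 6 of 7 in MB468res-R8. So does the list of other prostanoid synthases, 5 of 7 and 4 of 7. Of all tested genes 34.7% and 31.1% were called lower in the 2 lines. The release and transport lists have calls on both sides.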

How the data were processed

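Single-end 100 bp reads of poly(A) libraries with ERCC spike-in RNAs were aligned by the authors with HISAT2 (2.1.0) to GRCh38/hg38 plus the 92 ERCC references and counted per gene with featureCounts (Subread 1.5.3). The authors deposited these as raw counts per gene and library, the unit used here. Their normalized values were not used, nor was a table with the fold change, standard error, statistic and p-values of their own comparison. Totals with spike-ins ran from 11745553 to 36496655 counts (median 20503827), and spike-ins were kept out of library sizes. Depth limits chiefly PTGS1, PTGS2, HPGD, PTGIS and EDN2.

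Genes were filtered with filterByExpr (minimum count 10, minimum total 15), which kept 14741, scaled by TMM and tested in edgeR 4.0.16 (R 4.3.3, limma 3.58.1) with a robust quasi-likelihood fit of 8 group means over all 24 libraries (16 residual degrees of freedom). The Benjamini-Hochberg adjustment ran over all tested genes in each of 13 comparisons, and a gene was called at an adjusted p under 0.05. Normalized counts are counts divided by the effective library size and multiplied by its mean. RPKM used exon lengths of the GENCODE annotation of GRCh38. The code was tested on simulated data.

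The 10 genes, the lists and the tests were chosen with earlier results of these data known. The rule for other named genes took up to 4 called genes with the largest log2 fold change at 12 h in MB468 from each list, and the 2 genes of highest Pearson's r for each tested gene of the 10 whose group means spanned at least 1 on the log2 scale. HPGD, which spanned 1.07 on 2 counts in all, was left out. Alternatives were DESeq2 (1.42.0) size factors and its Wald test, library sizes taken from the spike-in totals, a covariate for spike-in variation, other filters, fewer groups in the fit, a replicate block, an adjusted p under 0.01 and omission of each library. The comparisons of 2 h with 0.5 h and the ratios within a library were added after seeing the data.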

Additional observations from a re-analysis of the deposited data

Results flagged for a closer look

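By the test of the difference itself, the 12 h response in Met-Hcy+ medium differed between MB468res-R8 and MB468 for 6 of the 8 tested genes. Of all tested genes 56.5% differed, 26.2% above and 30.3% below. The log2 difference, MB468res-R8 minus MB468, was 1.301 for PTGIS, 1.298 for LTA4H, 0.9864 for PTGES3 and 0.5548 for EDN2. It was -0.2381 for PTGES and -0.2485 for PTGES2. Under spike-in scaling PTGES and PTGES2 were at 0.0274 and 0.00864 and not called (edgeR adjusted p = 0.925 and 0.979). PTGIS, LTA4H and EDN2 are in the study's list of genes changed at 12 h in MB468, so their differences are not independent of that choice. PTGIS, LTA4H and PTGES3 were called under every alternative that was run. For PTGES the lines stood apart at 0 h, at 2930 ± 261 in the clone against 2441 ± 134 normalized counts (SD, n = 3), and not at 12 h, at 1308 ± 40.1 and 1282 ± 111. The differences for PTGES, PTGES2 and EDN2 were not called without 1 of several libraries.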

How the results depend on the processing

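Of the recomputed counts of called eicosanoid genes 200 stayed within 1.5 times the reported count and 13 did not. Among log2 fold changes that were called in either fit 12 changed sign, all when spike-in totals served as library sizes, an alternative under which the median of all tested genes went from 0.0073 to -0.415 for MB468 at 2 h, from -0.00061 to -0.311 between the lines at 0 h and from -0.0545 to 0.203 for the difference in the 12 h response. They were, between the lines at 0 h, PTGES (-0.0470), EPHX1 (-0.0394) and PTGR2 (-0.0291), and in MB468 at 2 h PTGES (-0.32), PTGES2 (-0.40), PTGES3 (-0.40), LTA4H (-0.41), AKR1C3 (-0.37) and EDN2 (-0.43). At 12 h they were PTGES2 in MB468 (-0.0899) and the line differences of PTGES (0.0274) and PTGES2 (0.00864). The same scaling called 8 genes in MB468 at 2 h, 1 in MB468res-R8 at 0.5 h and 0 there at 2 h. The shares of all tested genes called under it are not given, so these counts describe the dependence on scaling only. An adjusted p under 0.01 left 1 gene called in MB468 at 0.5 h and 1 in MB468res-R8 at 2 h. With a spike-in factor as covariate 4 genes were called between 0.5 h and 2 h in MB468, PTGES2 in MB468 at 12 h was lost (0.10, edgeR adjusted p = 0.0794), and so was the line difference of EDN2 (0.48, edgeR adjusted p = 0.0568). The cause was not tested.

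With 1 library left out, the count of called genes ran from 1 to 3 for MB468 at 0.5 h, 0 to 0 at 2 h and 7 to 8 at 12 h. It ran from 3 to 4, 1 to 2 and 6 to 7 for MB468res-R8, from 4 to 5 between the lines at 0 h and at 12 h, and from 0 to 0, 0 to 1 and 4 to 6 for the line difference at 0.5, 2 and 12 h. From 0.5 h to 2 h it stayed at 2 in MB468 and ran from 3 to 4 in the clone. At 0.5 h in MB468 the count was 1 without replicate 1 at 0 h or replicate 3 at 0.5 h. EDN2 in MB468res-R8 at 2 h lost its call without replicate 3 at 0 h or replicate 1 or 3 at 2 h, and PTGES without replicate 2 at 2 h, which left 1 called gene each time. PTGES2 in MB468 at 12 h lost its call without replicate 3 at 0 h or at 12 h. The line difference of PTGES at 12 h was -0.11 at its smallest and was lost without 1 of 5 libraries, replicate 3 of MB468 at 0 h or 12 h, replicate 1 of the clone at 0 h, or its replicate 1 or 3 at 12 h. That of PTGES2 was lost without replicate 3 of MB468 at 0 h or replicate 1 at 0 h or 3 at 12 h of the clone.

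Groups share replicate numbers, but same-numbered libraries did not deviate together in every pair of any comparison, with correlations from -0.501 to 0.466, so the libraries were treated as unpaired. The labels do not say what the numbers mark, and this check cannot exclude a pairing. In MB468res-R8 at 2 h against 0 h the mean correlation was 0.276 for the same number and -0.138 for other numbers. With a block for the replicate number, 8 genes were called in MB468 and 6 in MB468res-R8 at 12 h, 3 and 4 at 0.5 h, 0 and 2 at 2 h, 4 between the lines at 0 h and 6 for the line difference at 12 h. The block added AKR1C3 between the lines at 12 h (0.18, edgeR adjusted p = 0.0488), making 5, as did the DESeq2 Wald test (0.20, DESeq2 adjusted p = 0.0339), the fit on the compared groups alone (0.21, edgeR adjusted p = 0.0011) and no low-count filter (0.18, edgeR adjusted p = 0.000332), while DESeq2 size factors added EDN2 (0.36, edgeR adjusted p = 0.0492). The block dropped PTGES2 between 0.5 h and 2 h in the clone (0.14, edgeR adjusted p = 0.0517), leaving 3. Depth limits PTGS1, at 8 to 139 counts per library, and leaves PTGS2 and HPGD untestable.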

Other observations

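PTGER4, the EP4 receptor of prostaglandin E2, was 1 of the eicosanoid receptors that changed early. At 0.5 h 2 of the 7 tested receptors were called lower in MB468 and 1 in MB468res-R8, where 33.9% and 33.7% of all tested genes were called. At 2 h 1 was called higher in MB468 and 2 in MB468res-R8, against 16.3% and 4.37%. PTGER4 rose at 2 h from 362 to 887 normalized counts in MB468 (log2 fold change 1.30 ± 0.12 SE, edgeR adjusted p = 2.15e-09) and from 303 to 416 in MB468res-R8 (0.46, edgeR adjusted p = 0.0302). The log2 difference of -0.84 between the lines passed the test (edgeR adjusted p = 0.00242), and PTGER4 was picked here after its values were seen. Without the MB468 library that stood apart at 2 h the values were 1.25 in MB468 (edgeR adjusted p = 9.35e-08) and -0.79 for the line difference (edgeR adjusted p = 0.0104). Spike-in scaling moved the median of all tested genes to -0.415 in MB468 at 2 h and to 0.377 for the line difference. Values of PTGER4 under that scaling are not given, so its calls and sizes at 2 h may depend on it.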
